A study of Mus musculus with 10 samples.

Results

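The protein parts of the cytosolic ribosome were examined in RNA from mouse ileal crypts, epithelial glands at the base of the villi where stem cells, their dividing daughters and Paneth cells sit. Members were protein-coding genes whose annotated symbol is Rpsa, Rplp0, Rplp1 or Rplp2, or starts with Rpl or Rps and a digit. Symbols starting with Rps6k and symbols with -ps were left out, and the mitochondrial ribosomal proteins are not included. In the files, 84 of the 28987 genes met that rule. Of these, 33 were counted by symbol to the small (40S) subunit, 50 to the large (60S) subunit, and 1, Rps19bp1, encodes a binding partner of Rps19. The 60S count includes Rpl7l1, described below as an assembly factor. The filter on low values (at least 1 TPM, a length-corrected share of all transcripts, in at least 2 libraries) kept 81 of the 84: all 33 of the 40S subunit, 47 of the 60S subunit and Rps19bp1. The other 3, Rpl3l, Rpl10l and Rpl39l, were listed at or near 0. Rpl24 and Rpl41 were not analysed here.

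The 10 libraries fall into 3 groups of C57Bl6 mice, all labelled male and 12 weeks old. OE (n = 5) has the genotype VilCreER;icS5, labelled STAT5IEC+++, KO (n = 2) is VilCreER;Stat5 labelled STAT5IEC-/-, and Ctrl (n = 3) is VilCreER;Stat5 labelled STAT5+/+. All 3 groups therefore carry VilCreER, a Cre recombinase under the villin promoter, which is active in the intestinal epithelium and not in other cells of the gut wall. The labels do not spell out the icS5 allele, and no control of that line was analysed here, so allele and STAT5 status cannot be told apart in OE. The labels do not state that each library is a different mouse, and p-values therefore reflect only how far these samples vary, which may be technical.

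Each ribosomal protein is, as a rule, made from 1 widely expressed gene, and its product is built into the subunit in a fixed number of copies, so the genes are usually expressed together. Their messenger RNAs typically start with a C followed by a run of pyrimidines, the 5' terminal oligopyrimidine (TOP) motif, through which mTORC1 and Larp1 control their translation. Translation control acts on ribosome loading more than on RNA level, and RNA level was the only quantity measured. In crypts, ribosome production is known to be high in stem cells and dividing progenitors, and several members are mutated in Diamond-Blackfan anaemia, a failure of red cell formation.

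Values below are scaled TPM, the deposited TPM divided by a median-ratio factor per library, and differences are on the log2(scaled TPM + 1) scale. Ctrl 2 stood apart: 83.7% of its TPM came from mitochondrial genes, against 43.3% to 57.0% in the other 9 libraries, its factor was 0.295, and 10 members were listed at 0 in it, against 2 to 5 elsewhere. Stat5a was at 1.56, 2.10, 3.55, 2.81 and 2.81 in OE, 0.637 and 0.336 in KO, and 1.51, 2.60 and 1.07 in Ctrl. OE 1 and OE 2 thus lay within the Ctrl range for Stat5a. For Stat5b OE 1 lay within it as well (1.49 in OE 1, 0.970 to 1.76 in Ctrl), while OE 2, at 3.50, lay above it. Both KO libraries lay below Ctrl for both genes. Summed deposited TPM of Y-linked genes was 0.250 in OE 3, 0.140 in OE 4 and 3.45 in Ctrl 3, against 32.3 to 131 in the rest, which goes against the label of male mice for those 3. The sequencing depth is unknown, since TPM do not preserve it.

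The start of a ribosomal protein gene often carries the TOP run, and starts are shown here for members whose values are described below. The windows hold 10 bases before the RefSeq start and 20 from it on (RefSeq, GRCm38.p6, 5′ to 3′), and capitals mark the first unbroken stretch of at least 5 C or T letters that opens with a C between 3 bases before the first transcribed base and 5 bases past it.
Rps6, chr4:86857348-86857377, minus strand: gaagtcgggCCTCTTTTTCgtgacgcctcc
Rps15a, chr7:118116128-118116157, minus strand: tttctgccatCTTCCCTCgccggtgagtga
Rpl28, chr7:4792955-4792984, plus strand: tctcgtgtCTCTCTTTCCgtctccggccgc
Rpl38, chr11:114668570-114668599, plus strand: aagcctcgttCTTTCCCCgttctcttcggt
Rps27, chr3:90213629-90213658, minus strand: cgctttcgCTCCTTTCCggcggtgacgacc
Rps27rt, chr9:114982720-114982749, minus strand: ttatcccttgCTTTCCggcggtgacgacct
Rpl22l1, chr3:28805498-28805527, plus strand: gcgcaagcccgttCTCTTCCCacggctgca
Rpl22, chr4:152325716-152325745, plus strand: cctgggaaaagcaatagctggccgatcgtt
The first 7 windows hold such a stretch, of 10 letters in Rps6 and 8 in Rps15a, while in the Rpl22 window, and at the other start listed for that gene, none opens between those limits. Rps27 and Rps27rt, which lie on different chromosomes, share 38 consecutive letters of the first 50 after the start.

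RefSeq promoters (250 bases before to 50 after the start) were found for 64 of the 84 members, 76 promoters in all. A stretch of C and T of at least 7 letters that opens with a C within 30 bases of the start was present in 64.5% of member promoters, against 28.6% of all 32851 promoters in the table. The letters CTTTCC, searched on the sense strand only, were found in 39.5% of member promoters against 14.1% of all. CGGAAG, the core bound by Ets factors such as Gabpa, was found on either strand in 59.2% against 16.9%. AAGATGG, a core of the YY1 motif, was found on either strand in 15.8% against 6.34%. These are matches of letters, with no overlap between the motifs searched removed, and nothing was measured at these sites.

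The members were among the more abundant RNAs of the crypts. Mean scaled TPM over the 10 libraries ran between 3.25 and 685 for the 81 tested members, with a median of 83.8, against a median of 7.43 for all 13056 genes tested. Of the 81, 37 averaged over 100, 8 averaged under 10, and 45 ranked among the top 1000 genes. The 8 highest were Rps2 (mean 685), the stalk proteins Rplp1 (593) and Rplp0 (448), which bind elongation factors on the 60S subunit, Rpl5 (486), Rps15a (401), Rps24 (383), Rps3a1 (293) and Rps19 (280.1). Because TPM are per length, these levels can be set side by side, but each depends on how reads were shared with near-identical copies.

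**Figure D1:**
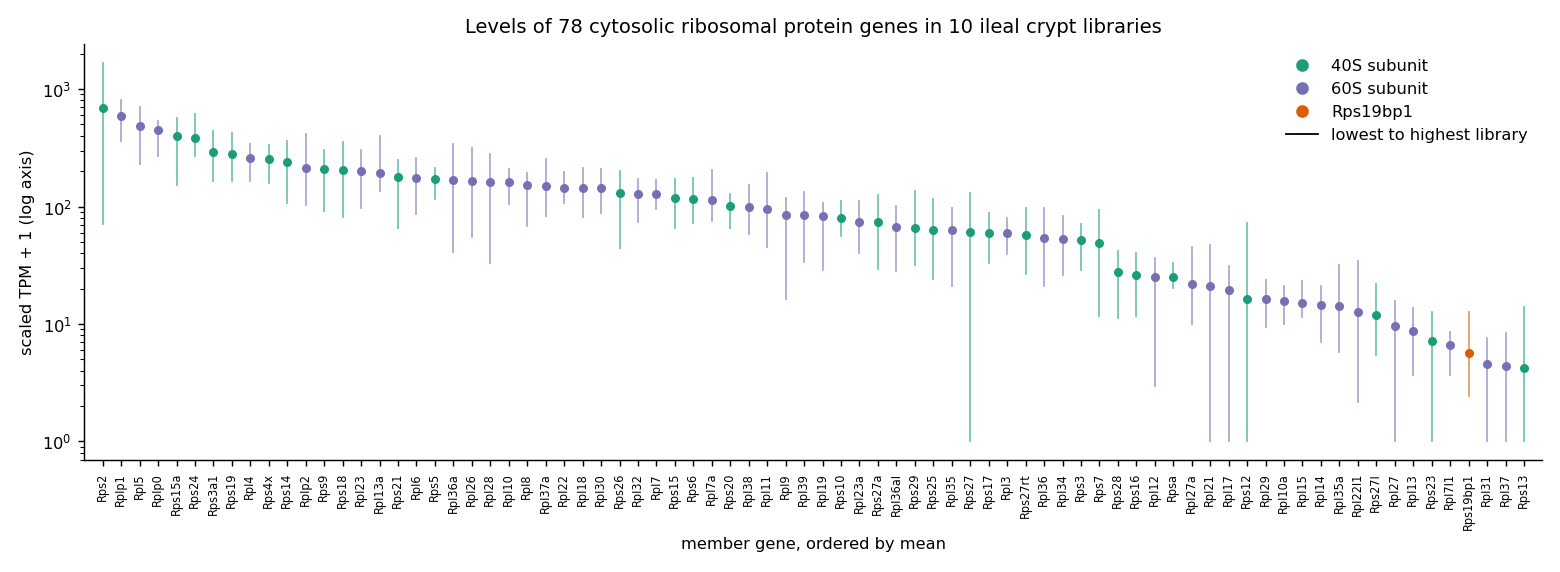
Scaled TPM + 1 on a log axis for 78 of the 81 tested members, ordered by mean. Points are means over 10 libraries and lines run between the lowest and the highest library. Most members lie between 10 and 1000, with Rps2 on the left at a mean of 685 and lines that reach the floor for some members, among them Rps27, Rpl21, Rpl17 and Rps12, each listed at 0 in at least 1 library.

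Rplp1 was at 804, 714, 533, 464 and 587 in OE, 784 and 692 in KO, and 606, 362 and 379 in Ctrl. Rplp0 was at 459, 512, 538, 472 and 519.8 in OE, 532 and 369 in KO, and 396, 271 and 417 in Ctrl. Every OE library lay above every Ctrl library for Rplp0, and both KO libraries lay above Ctrl for Rplp1. Rps24 was at 616, 435, 438, 322 and 417 in OE, 416 and 324 in KO, and 270.1, 289 and 307 in Ctrl, so that Ctrl lay below both other groups. Rps3a1 was at 254, 308, 371, 296 and 439 in OE, 249.9 and 281 in KO, and 337, 165 and 230 in Ctrl, with all 3 groups overlapping.

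Rpsa, the laminin receptor homologue on the 40S surface, and Rpl7 were among the members with the narrowest spread over libraries. Rpsa was at 25.6, 19.3, 32.0, 31.5 and 28.5 in OE, 23.3 and 19.7 in KO, and 22.0, 20.4 and 20.6 in Ctrl. Its log2 range over libraries was 0.70 alone and 1.54 with its 8 same-named pseudogenes added, so the narrow spread holds for the parent gene only. Rpl7, a 60S protein, was at 168, 143, 131, 131 and 126 in OE, 145 and 109 in KO, and 102, 115 and 94.98 in Ctrl, with OE above Ctrl throughout. The widest spread was found for Rps27, Rps12, Rpl21, Rpl17 and Rps2. Rps12 was listed at or near 0 in 6 of the 10 libraries and at up to 71.5 in Ctrl 2, while Rpl17 and Rpl21 were listed at 0 in Ctrl 2 alone and at 7.25 to 46.2 in the other 9 libraries. The same-named pseudogenes of Rps12 summed to 0.648 in Ctrl 3 and to 35.6 to 66.8 in the other 9 libraries. Those of Rpl17 summed to 122 in Ctrl 2. With pseudogenes added, the log2 range was 1.23 in place of 4.96 for Rpl17. It stayed wide for Rps12 (6.18) and Rpl21 (5.11). The median log2 range over libraries was 1.75 for members and 1.52 for all genes tested.

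Rps2 (chr17:24718116-24721929, GRCm38 as in all gene positions here), a 40S protein at the messenger RNA entry site, had the highest mean and 1 of the widest spreads. It was at 69.7, 312, 114, 779 and 1671 in OE, 537 and 355 in KO, and 1109, 632 and 1276 in Ctrl. Both KO libraries lay below Ctrl, while OE held both the lowest and the highest value of all. Its 4 same-named pseudogenes, chiefly Rps2-ps10 (chromosome 18) and Rps2-ps13 (chrX:52898588-52899469), carried much of the remainder. With these copies added, the sums were 582, 901, 521, 787 and 1672 in OE, 1169 and 662 in KO, and 1116, 632 and 1277 in Ctrl, and all 3 groups overlapped. The parent gene held 12.0%, 34.7%, 21.8%, 99.0% and 99.9% of that sum in OE, 45.9% and 53.7% in KO, and 99.3%, 100% and 99.9% in Ctrl. The log2 range over libraries was 4.56 for the parent and 1.68 for the sum.

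**Figure D2:**
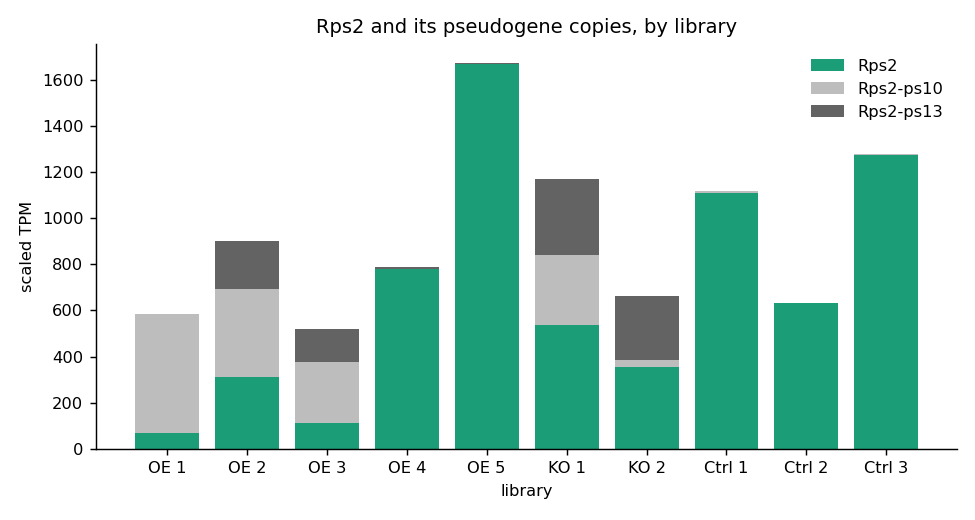
Scaled TPM of Rps2 and its 2 most abundant pseudogene copies in each library, stacked. OE 1 to OE 3 and both KO libraries divide the sum between parent and copies, while OE 4, OE 5 and the 3 Ctrl libraries hold at least 99.0% in the parent.

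Rps2-ps13 alone was at 3.32e-08, 207, 144, 5.65 and 1.20 in OE, 330.4 and 277 in KO, and 0.0876, 0 and 0 in Ctrl. Whether the copies are transcribed or reads of the parent were assigned to them was not tested. The log2 difference of Rps2 was -1.14 (95% interval -3.64 to 1.36) for KO against Ctrl and -1.60 (-3.60 to 0.40) for OE against Ctrl. With the copies added it was -0.13 and -0.24. Adding copies to the parents was chosen after the data were seen.

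Same-named pseudogenes were present for 56 of the 84 members, 193 in all. Their summed mean exceeded that of the parent for 18 of the 56 members, and for 12 it did so in every library. With copies added, the log2 range over libraries was narrower than that of the parent for 26 of the 56. The median range was 1.82 for the parents and 1.51 for the sums. Rpl38, a 60S protein linked to patterning of the mouse skeleton, was at 150.1, 131, 80.5, 57.8 and 112 in OE, 125 and 107 in KO, and 66.2, 82.1 and 78.2 in Ctrl. Its processed pseudogene Rpl38-ps2 (chr6:140746960-140747172) was at 3937, 3244, 1497, 1933 and 2247 in OE, 3328 and 2048 in KO, and 2008, 1327 and 1254 in Ctrl, above every member in 9 of the 10 libraries.

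The lowest levels also moved with the copies. Rps13 was listed at 0, 13.0, 0, 0 and 5.80 in OE, 2.96 and 4.68 in KO, and 6.14, 0 and 0 in Ctrl. With its 7 same-named copies Rps13 summed to 99.4, 66.6, 61.4, 75.7 and 89.7 in OE, 74.4 and 60.5 in KO, and 56.0, 53.8 and 73.5 in Ctrl, a log2 range of 0.88 in place of 3.80. Rpl31 averaged 3.56 alone and 116 with its 11 copies. Rpl37 had no such sum to set beside its values, which were 7.44, 2.78, 5.29, 3.987 and 1.71 in OE, 3.84 and 2.15 in KO, and 4.41, 0 and 2.21 in Ctrl.

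Shared sequence was common. In 68 of the 81 tested members, at least 50% of all 50-base coding windows were found word for word in transcripts of other genes. The 13 with less sharing had a median level of 144, against 75.8 for the 68, and a median log2 range over libraries of 1.29 against 1.88. Their median log2 differences were 0.63 for KO against Ctrl and 0.66 for OE against Ctrl, and those of the 68 were 0.56 and 0.53.

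Most members leaned the same way in some libraries and were divided in others. Each member's log2 level was set against its own mean over the 10 libraries, and the median of the 81 deviations was 0.49, 0.22, 0.085, -0.19 and 0.24 in OE, 0.44 and -0.11 in KO, and 0.015, -0.60 and -0.39 in Ctrl. OE 1 and KO 1 had the highest medians, with 73 and 77 members above their own mean, and Ctrl 2 and Ctrl 3 the lowest, with 12 and 13. In OE 3 and Ctrl 1 the members were divided, with 48 and 41 above their own mean. The groups overlapped: Ctrl 1 lay above OE 4 and KO 2. OE 1 held the highest value of the 10 libraries for 35 members, and Ctrl 2 the lowest for 36.

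Both subunits followed the same order at the ends. The median deviation of 40S members was 0.47, 0.23, 0.055, -0.23 and 0.24 in OE, 0.38 and -0.014 in KO, and 0.063, -0.59 and -0.48 in Ctrl. That of 60S members was 0.62, 0.20, 0.13, -0.16 and 0.24 in OE, 0.45 and -0.18 in KO, and -0.023, -0.60 and -0.30 in Ctrl. As a share of all TPM from nuclear genes, members made up 2.53%, 2.56%, 2.52%, 2.33% and 2.65% in OE, 3.09% and 2.19% in KO, and 2.47%, 1.17% and 2.04% in Ctrl. Ctrl 2 lay well below the others, whose shares overlapped between the groups. These shares leave out the ribosomal protein pseudogenes, which held between 0.55% (Ctrl 2) and 1.80% (KO 1) of nuclear TPM. A lower share cannot be told apart from fewer cells rich in ribosomal protein RNA, since these are bulk samples.

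**Figure D3:**
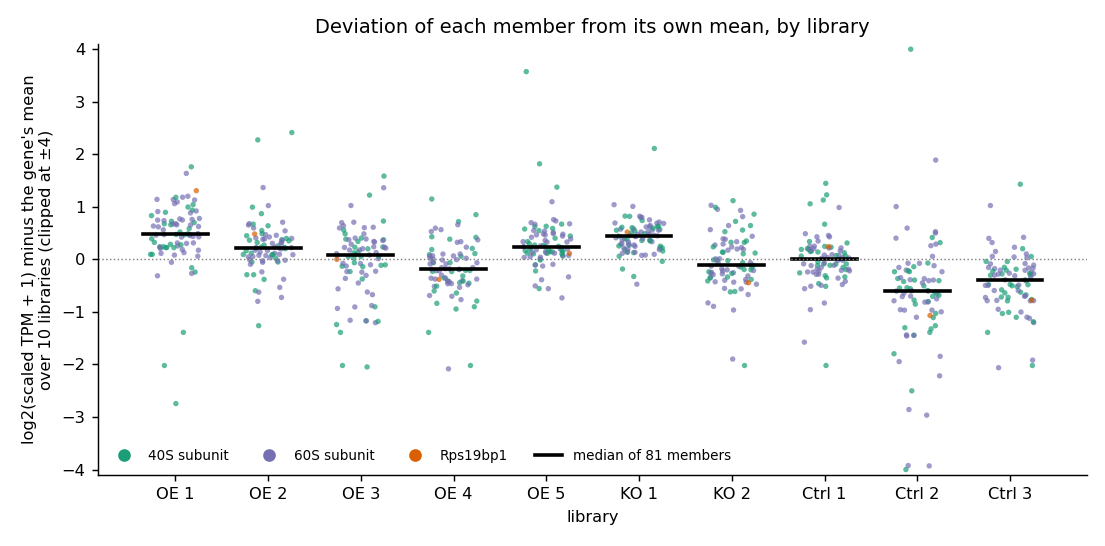
Deviation of log2(scaled TPM + 1) from each member's own mean over 10 libraries, for 81 members by library, with the median as a bar. The medians run between 0.49 in OE 1 and -0.60 in Ctrl 2. Most points lie on 1 side of 0 in some libraries, with 77 members above their own mean in KO 1 and 12 in Ctrl 2. In others they lie on both sides, with 48 above in OE 3 and 41 in Ctrl 1. Rps2, Rps27 and Rps12 are among the members that spread most.

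Comparing KO with Ctrl asks how loss of epithelial STAT5 bears on these genes. The members leaned towards higher levels in KO, but no member passed the test. The log2 difference was positive for 77 of 81 members, against 53% of all genes tested, with a median of 0.59 against 0.038 for all genes and quartiles of 0.27 and 0.87. The medians were 0.59 for both the 33 members of the 40S and the 47 of the 60S subunit. At an adjusted p under 0.05 (limma, Benjamini-Hochberg), 0 members were higher and 0 lower, and 0 of all 13056 genes were called. At an unadjusted p under 0.05, 15 members were higher, 7 of the 40S and 8 of the 60S subunit, against 1.94% of all genes, and 0 were lower, against 1.52%. Among them were Rps9, Rps14, Rps15a, Rps21, Rps25 and Rps27l of the small subunit and Rpl8, Rpl10, Rpl18, Rpl27a, Rpl28, Rpl32 and Rpl37a of the large one. Both KO libraries lay above all 3 Ctrl libraries for 27 members, against 9.09% of all genes, and below them for 1, Rps2, against 7.27%.

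The size of that lean depends on single libraries. The median was 0.28 without KO 1, 0.84 without KO 2 and 0.37 without Ctrl 2, and 57, 79 and 66 members were then positive. Without the 3 libraries low in Y-linked RNA it was 0.49, with 72 members positive. On TPM as deposited it was 1.05, beside 0.38 for all genes, and 18 members did not overlap upwards, against 8.44% of all genes. Without Ctrl 2 that count was 33, against 14% of all genes.

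**Figure D4:**
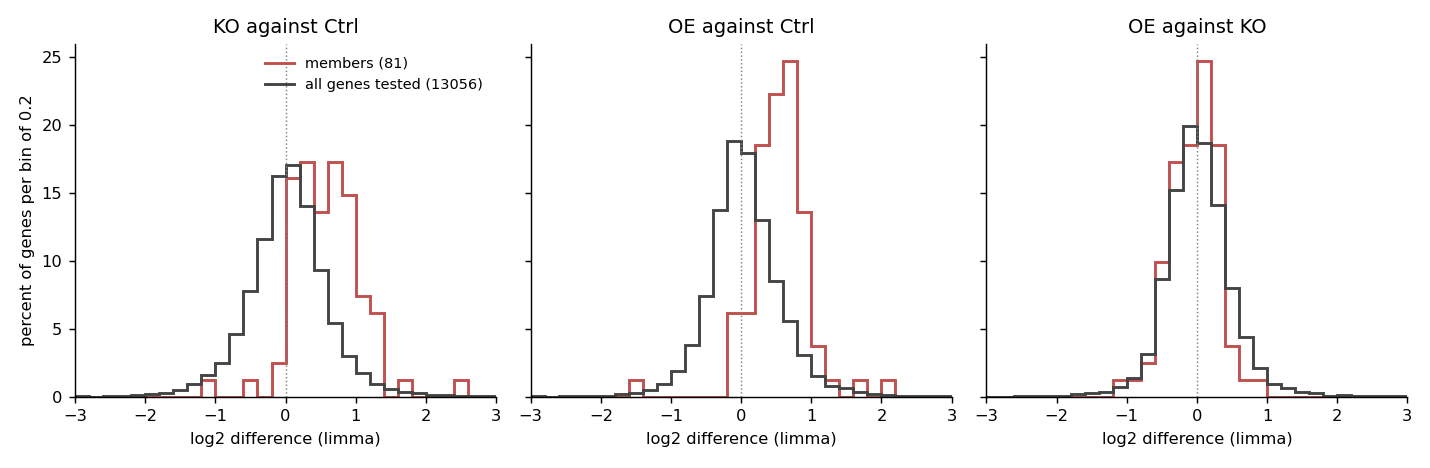
Distribution of limma log2 differences for the 81 members and for all 13056 genes tested, as percent of genes per bin of 0.2, in 3 comparisons. The members lie to the right of all genes in KO against Ctrl (medians 0.59 and 0.038) and in OE against Ctrl (0.54 and 0.021), and on top of them in OE against KO (-0.00455 and -0.000623).

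Rps27l (chr9:66946086-66949516), a stress-linked paralog of Rps27 known as a p53 target, had the smallest p of the members in KO against Ctrl. It was at 8.31, 11.7, 13.3, 13.7 and 11.3 in OE, 12.1 and 20.9 in KO, and 7.88, 5.10 and 4.47 in Ctrl. Every library of OE and of KO lay above every Ctrl library. The log2 difference for KO against Ctrl was 1.35 (0.61 to 2.09), with a limma adjusted p of 0.943, and for OE against Ctrl 0.91 (0.31 to 1.50), with an adjusted p of 0.755.

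Rps15a (chr7:118104372-118116188), a 40S protein, was at 441, 423, 403, 361 and 563 in OE, 536 and 544 in KO, and 339, 153 and 252 in Ctrl. Here too both other groups lay above Ctrl. The log2 difference was 1.19 (0.40 to 1.99) for KO against Ctrl, at a mean of 540.0 ± 5.82 in KO and 248 ± 93.5 in Ctrl (SD, n = 2 and 3). The limma adjusted p was 0.943.

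The next members were chosen after their values were seen, from those without overlap in this comparison. Rpl28, a 60S protein, was at 234, 104, 278, 131 and 92.0 in OE, 237 and 278 in KO, and 138, 89.1 and 31.8 in Ctrl, and its log2 difference for KO against Ctrl was 1.79 (0.41 to 3.18). With its 3 same-named copies it summed to 458 and 369 in KO and to 334, 258 and 197 in Ctrl, and KO again lay above Ctrl. Rps25, needed for translation from some viral internal entry sites, was at 114, 71.2, 58.9, 39.6 and 75.4 in OE, 87.3 and 67.2 in KO, and 53.4, 23.1 and 33.1 in Ctrl, a difference of 1.13 (0.14 to 2.12). Rps14, whose loss underlies the anaemia of the human 5q- syndrome, was at 322, 222, 264, 184 and 214 in OE, 301 and 359 in KO, and 216, 218 and 106 in Ctrl. OE overlapped Ctrl for all 3 genes.

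The difference was negative for 4 members, Rps2, described above, Rpl31, Rps6 and Rpl13, in order of p. Rpl31, a 60S protein at the tunnel exit, had low levels, averaging 2.56 in KO and 3.47 in Ctrl. Its difference of -0.41 (-2.37 to 1.54) was 0.88 without KO 2 and 0.18 without Ctrl 2. Rps6 (chr4:86854660-86857412), the 40S protein phosphorylated by S6 kinase and used as a readout of mTORC1, was at 135, 143, 106, 81.5 and 172 in OE, 121 and 72.0 in KO, and 116, 84.3 and 115 in Ctrl, with all groups overlapping. Its log2 difference for KO against Ctrl was -0.15 (-0.96 to 0.65). It was 0.22 without KO 2 and 0.37 on TPM as deposited. Rpl13, of the 60S subunit, was at 12.7, 4.53, 7.49, 11.6 and 11.7 in OE, 4.77 and 5.32 in KO, and 5.88, 10.3 and 2.68 in Ctrl. Its difference was -0.13 (-1.25 to 0.99), and it was 0.27 without Ctrl 2 and 0.33 on TPM as deposited. With same-named copies added to each member, a setting chosen after the data were seen, 80 of 81 members were positive. Rps2 alone stayed negative. Rps6 then summed to 458 and 197 in KO and to 265, 127 and 380 in Ctrl, still overlapping.

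Comparing OE with Ctrl asks about raised epithelial STAT5. The members leaned in the same way as in KO, and both comparisons share the Ctrl libraries. The log2 difference was positive for 75 of 81 members, against 52.1% of all genes, with a median of 0.54 against 0.021 for all genes and quartiles of 0.35 and 0.74. The median was 0.53 for the 40S and 0.60 for the 60S subunit. At an adjusted p under 0.05, 0 members were higher and 0 lower (limma, Benjamini-Hochberg), as was true of all genes, and the lowest adjusted p of a member was 0.755. At an unadjusted p under 0.05, 19 members were higher, 9 of the 40S and 10 of the 60S subunit, against 3.79% of all genes, and 0 were lower, against 2.31%.

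All 5 OE libraries lay above all 3 Ctrl libraries for 15 members, against 2.21% of all genes, and below them for 0, against 1.52%. The 15 were Rps3, Rps4x, Rps9, Rps15a, Rps24 and Rps27l of the small subunit and Rpl3, Rpl4, Rpl6, Rpl7, Rpl8, Rpl11, Rpl27a, Rpl32 and Rplp0 of the large one. The count was 8 on TPM as deposited, against 1.78% of all genes, and 39 without Ctrl 3, OE 3 and OE 4, against 14.2%. The median over members was 0.39 without Ctrl 2, with 69 members positive, and 0.71 without Ctrl 1. Without Ctrl 2 and OE 1 together it was 0.32, with 63 positive, and 7 members had an unadjusted p under 0.05. On TPM as deposited the median was 1.00, beside 0.36 for all genes.

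Rps3 (chr7:99477896-99483738), a 40S protein at the messenger RNA entry channel that also acts in DNA repair, had the smallest p of the members. It was at 62.0, 52.7, 69.5, 56.3 and 54.8 in OE, 63.2 and 44.5 in KO, and 41.1, 27.9 and 37.3 in Ctrl, so that OE and KO lay above Ctrl. Its mean was 59.1 ± 6.77 in OE and 35.4 ± 6.81 in Ctrl (SD, n = 5 and 3), with a log2 difference of 0.73 (0.26 to 1.21). Rpl32 (chr6:115805505-115808747), whose gene hosts Snora7a, was at 170.1, 144, 156, 109 and 137 in OE, 168 and 141 in KO, and 108, 72.8 and 75.6 in Ctrl. OE lay above Ctrl throughout, by 0.74 (0.24 to 1.25). The limma adjusted p was 0.755 for both.

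Rps9 and Rpl8 lay above Ctrl without overlap in both OE and KO, and were chosen for that. Rps9, a 40S protein of early assembly, was at 273, 228, 204, 209 and 249 in OE, 303 and 178 in KO, and 154, 90.7 and 172 in Ctrl, with log2 differences of 0.78 (0.17 to 1.40) for OE and 0.79 (0.018 to 1.56) for KO. Rpl8, a 60S protein of the catalytic centre, was at 181, 150.1, 191, 149 and 169 in OE, 168 and 179.9 in KO, and 139.9, 67.8 and 123 in Ctrl, with differences of 0.66 (0.091 to 1.23) and 0.72 (0.0053 to 1.43). The X-linked Rps4x was at 321, 292, 248, 234 and 295 in OE, 332 and 226 in KO, and 229, 158 and 172 in Ctrl, with OE above Ctrl by 0.58 (0.058 to 1.10) and KO overlapping it. Rpl4, host of the most small nucleolar RNAs, was at 304, 268, 301, 258 and 297 in OE, 339 and 195 in KO, and 234, 163 and 239.7 in Ctrl, a difference for OE of 0.45 (-0.10 to 0.99). Rpl27a was at 44.1, 18.7, 17.8, 23.9 and 22.7 in OE, 28.2 and 17.99 in KO, and 16.2, 9.16 and 8.91 in Ctrl, above Ctrl in both groups, with OE 1 the highest of all.

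Of the members with a negative difference, Rpl29 and Rps20 had the smallest p after Rps2, and both differences were near 0. Rpl29 was at 15.9, 8.47, 9.61, 21.6 and 19.1 in OE, 16.3 and 14.8 in KO, and 14.9, 22.6 and 10.1 in Ctrl, a log2 difference for OE against Ctrl of -0.098 (-0.88 to 0.68). Rps20 was at 106, 119.9, 90.5, 65.0 and 104 in OE, 127 and 98.5 in KO, and 123, 89.9 and 84.7 in Ctrl, a difference of -0.043 (-0.60 to 0.51). The groups overlapped for both, and the sign of either turned under other settings, given at the end.

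**Figure D5:**
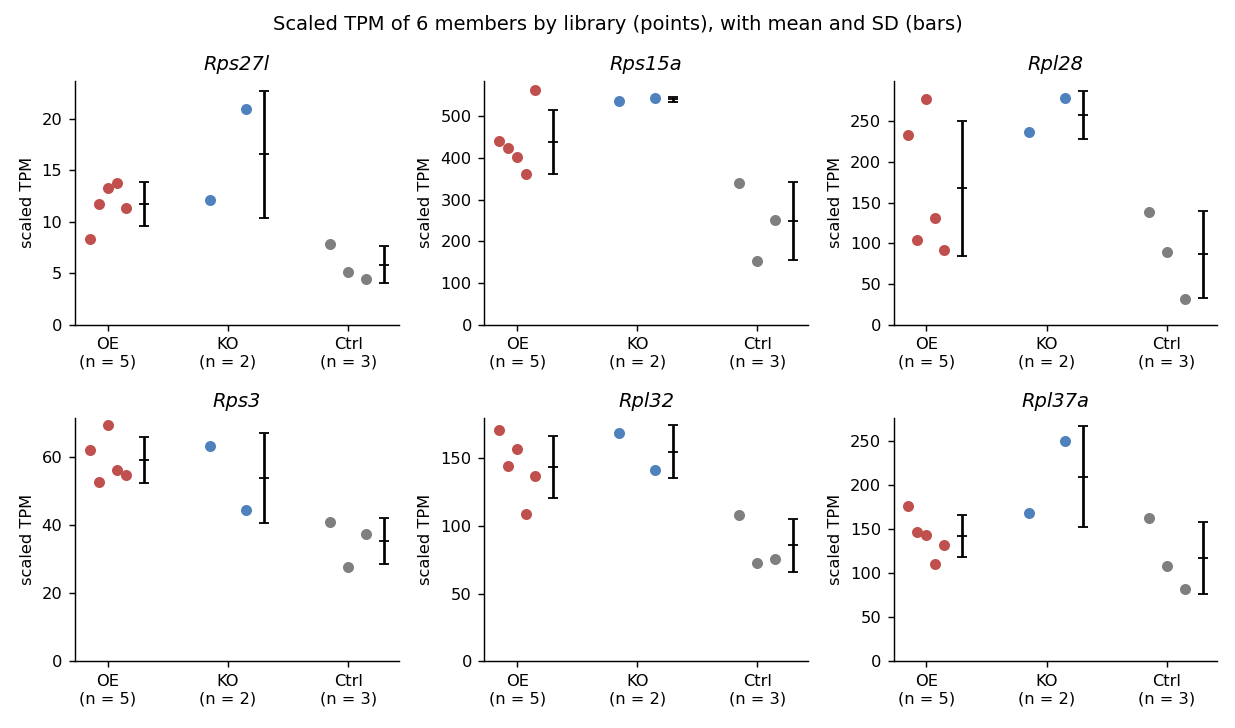
Scaled TPM of 6 members by library, with group mean and SD beside the points. Rps27l, Rps15a, Rps3 and Rpl32 lie higher in every OE and KO library than in any Ctrl library, while OE and Ctrl overlap for Rpl28 and Rpl37a.

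Set against each other, OE and KO did not separate the members. The log2 difference was positive for 40 of 81 members, against 49.9% of all genes, with a median of -0.00455 and quartiles of -0.25 and 0.19. The adjusted p was 1 for every member (limma), and 0 members had an unadjusted p under 0.05 in either direction, against 1.62% of all genes higher and 1.33% lower. OE lay below KO without overlap for 2 members, Rpl10 among them, against 4.43% of all genes, and above it for 0, against 4.04%. The median was 0.23 without KO 1 and -0.25 without KO 2.

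Rpl10, the X-linked 60S protein placed last in subunit maturation, was at 178, 173, 183, 121 and 173 in OE, 195 and 206 in KO, and 135, 142 and 104 in Ctrl. KO was highest, and OE overlapped Ctrl through OE 4. The log2 difference for OE against KO was -0.29 (-0.84 to 0.27).

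Rpl37a (chr1:72711290-72713813), a zinc finger protein of the 60S subunit, had the smallest p among members lower in OE than in KO. It was at 177, 148, 144, 111 and 132 in OE, 169 and 251 in KO, and 163, 108 and 82.0 in Ctrl, with OE and KO overlapping and a difference of -0.55 (-1.24 to 0.15). Rps27l had a difference of -0.44 (-1.12 to 0.24). In the other direction Rpl3, which shapes the peptidyl transferase centre, was at 78.5, 75.6, 72.0, 72.4 and 52.2 in OE, 60.3 and 40.9 in KO, and 38.5, 48.4 and 49.4 in Ctrl. OE overlapped KO through OE 5 and lay above Ctrl, with differences of 0.48 (-0.085 to 1.04) against KO and 0.61 (0.12 to 1.10) against Ctrl. Rpl13 and Rpsa were the next, at 0.74 (-0.29 to 1.76) and 0.32 (-0.22 to 0.86). With its 2 same-named copies Rpl3 summed to 219, 216, 286, 179 and 198 in OE and to 258 and 189 in KO. Its sums in Ctrl were 164, 77.6 and 163, still below OE. With copies added, Rpl13 was at 12.7, 4.64, 7.49, 11.6 and 11.7 in OE and 14.6 and 5.32 in KO. Rpsa then summed to 159, 103, 90.9, 64.5 and 91.7 in OE and to 112 and 75.3 in KO. OE and KO overlapped in each of these sums, and the part of the copies was not tested.

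Several members have near paralogs, some of them tissue-bound. Rpl3l, the form of heart and skeletal muscle, made up at most 0.73% of the sum with Rpl3, in OE 5. Rpl10l, known from testis, was listed at 0 in every library except OE 2, and Rpl39l, also known from testis, in all 10. Their coding sequences are 73.2%, 84.7% and 85.0% identical to Rpl3, Rpl10 and Rpl39.

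Rpl22l1, whose product can stand in for Rpl22, was at 8.72, 4.28, 22.6, 1.17 and 9.43 in OE, 14.0 and 16.8 in KO, and 2.08, 33.1 and 4.56 in Ctrl. Its share of the sum with Rpl22 was 4.28%, 2.78%, 16.6%, 1.07% and 5.06% in OE, 6.68% and 12.2% in KO, and 1.44%, 19.9% and 4.14% in Ctrl, with all groups overlapping. Rpl22 itself varied less, between 106 and 196. Rpl36al, on chromosome 12, held 22.8%, 33.8%, 16.9%, 34.0% and 26.7% of the sum with the X-linked Rpl36a in OE, 20.6% and 32.6% in KO, and 26.5%, 69.2% and 24.4% in Ctrl. Ctrl 2 again stood apart, and the other 9 libraries overlapped. The coding sequences of that pair are 87.7% identical, so part of the share may rest on how reads were assigned, which was not tested. Rpl7l1, an assembly factor of only 48.3% identity to Rpl7, made up 2.28% to 7.33% of the sum in the 10 libraries.

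Rps27 and Rps27rt have identical coding sequences of 252 bases, so their reads cannot be told apart within the coding part. Rps27 was at 129, 14.99, 114, 50.7 and 55.0 in OE, 66.6 and 68.6 in KO, and 59.997, 0 and 33.5 in Ctrl. Rps27rt was at 63.1, 69.3, 40.9, 97.0 and 58.0 in OE, 63.6 and 45.1 in KO, and 37.0, 66.7 and 25.6 in Ctrl. The libraries lowest in Rps27, OE 2 and Ctrl 2, were not low in Rps27rt. Rps27l differs more, at 61.0% identity, and its values are those given above.

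Some members act outside the ribosome or are known from disease. Rpl5 and Rpl11 form, with 5S RNA, a particle that binds Mdm2 and so raises p53. Rpl5 was at 372, 700.3, 391, 415 and 661 in OE, 664 and 382 in KO, and 549, 231 and 497 in Ctrl. Rpl11 was at 193, 91.5, 122, 87.4 and 91.7 in OE, 130.2 and 44.1 in KO, and 73.6, 49.1 and 68.8 in Ctrl. OE lay above Ctrl for Rpl11, with a log2 difference of 0.82 (-0.025 to 1.66), and the groups overlapped for Rpl5, at 0.30 (-0.54 to 1.13), or -0.0996 without Ctrl 2.

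Rps19, in people the gene most often mutated in Diamond-Blackfan anaemia, was at 423, 392, 249, 234 and 296 in OE, 376 and 175 in KO, and 234, 164 and 259.9 in Ctrl. Its binding partner gene Rps19bp1 was far lower, at 11.5, 6.07, 4.06, 2.89 and 4.48 in OE, 6.26 and 2.72 in KO, and 4.99, 1.41 and 1.95 in Ctrl. Rpl13a, which leaves the ribosome to silence inflammatory messages and whose gene hosts 4 small nucleolar RNAs, was at 398, 195, 211, 134 and 186 in OE, 244 and 134 in KO, and 134, 137 and 145 in Ctrl. OE 1 and KO 1 were the highest of their groups for all 3 genes, and OE overlapped Ctrl in each.

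Ribosomal protein genes often carry small nucleolar RNAs in their introns, which guide modification of ribosomal RNA. In the annotation 30 of the 84 members (35.7%) hosted at least 1 such gene, 58 in all, against 264 of 20187 protein-coding genes (1.31%). Rpl4 hosted 5 and Rpl13a hosted 4. Host members had median log2 differences of 0.43 for KO against Ctrl and 0.46 for OE against Ctrl, and the 51 tested members without one had 0.63 and 0.62. The small nucleolar RNAs themselves were not compared. The 84 genes lie on 19 chromosomes, 14 of them on chromosome 7 and 4 on X, and their median length was 3328.5 bases, against 18723 for all protein-coding genes in the files.

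Some ribosomal proteins carry other names. Rack1, a scaffold on the 40S subunit, was at 191, 219.8, 251, 176 and 236 in OE, 216 and 192 in KO, and 184, 108 and 205 in Ctrl. Fau, whose product includes Rps30, was listed at 0 in 6 libraries and at no more than 4.60 in the rest.

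Most lists of genes around the ribosome leaned in the same direction by less, and none of their genes passed the test. Of all genes tested, 53% were positive for KO and 52.1% for OE against Ctrl, with medians of 0.038 and 0.021. Of 45 tested ribosome assembly genes, 38 were positive for KO against Ctrl, with a median of 0.39, and 42 for OE against Ctrl, with a median of 0.46. Of 12 other TOP products such as elongation factors, 11 and 12 were positive, with medians of 0.38 and 0.38. Of 15 genes of RNA polymerase I and its cofactors, 13 and 14 were positive, with medians of 0.24 and 0.36, and of 27 initiation factors 20 and 21, with medians of 0.14 and 0.17. Of 12 genes of ribosome rescue and quality control, 7 and 8 were positive, with medians of 0.14 and 0.23. The 77 mitochondrial ribosomal proteins had medians of 0.087 and 0.21, with 42 and 52 positive. For KO against Ctrl that share was near the share of all genes. Both medians were smaller than those of the cytosolic members, a difference that was not tested.

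Single genes with the smallest p in these lists were Nop16, a nucleolar assembly factor, Polr1e and Npm1. Nop16 averaged 16.0 ± 3.94 in OE and 8.35 ± 3.02 in Ctrl (SD, n = 5 and 3), a log2 difference of 0.89 (0.25 to 1.53, limma adjusted p = 0.755). Polr1e, a subunit of RNA polymerase I, averaged 8.52 ± 2.42 in OE and 4.11 ± 2.34 in Ctrl, and Npm1, a nucleolar chaperone, 202 ± 32.8 in OE and 122 ± 49.7 in Ctrl. Ubtf, which opens ribosomal DNA for transcription, had the smallest p of these lists between OE and KO, at 18.5 ± 3.38 in OE and 9.30 ± 1.64 in KO (SD, n = 5 and 2), a difference of 0.91 (0.33 to 1.49, adjusted p = 1). Of 24 regulators of ribosomal protein genes, which include mTORC1 parts and promoter-binding factors, 15 were positive for KO and 14 for OE against Ctrl, with medians of 0.15 and 0.036. Among them Gabpa averaged 14.1 ± 0.89 in KO and 24.9 ± 5.96 in Ctrl, a difference of -0.75 (-1.40 to -0.10, adjusted p = 0.943).

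The 10 epithelial genes checked against the label summed to 4064 to 6482 in OE, 4804 to 5569.7 in KO and 3482 to 5843 in Ctrl. Marker lists of cell types and of division are set beside the members here: 0 of their genes passed the test in any comparison, their summed levels leaned one way in some lists, and their part in the members' values was not tested. The summed level of 15 genes of dividing cells was 314.7 to 436 in OE, 229.6 to 395 in KO and 96.8 to 346 in Ctrl, with 15 of 15 positive for OE and 13 of 15 for KO against Ctrl. Ctrl 2 was the lowest of all 10. The 15 enterocyte genes summed to 1158 to 9171 in OE, 1819.7 to 2875 in KO and 1842 to 17047 in Ctrl, with Ctrl 2 the highest, and 1 of 15 was positive for OE and 0 for KO. The 8 B cell genes summed to 119.5 to 1262 in OE, 72.8 to 233 in KO and 33.9 to 194 in Ctrl, with 8 of 8 positive for OE, although Ms4a1 and Cd79a were each listed at 0 in at least 1 library.

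The 10 macrophage genes tested were positive in 9 cases for KO and in 10 for OE against Ctrl, and the list summed to 73.0 to 306 in OE, 153 to 253 in KO and 51.5 to 87.9 in Ctrl, with both KO libraries above Ctrl. The 10 T cell genes were positive in 10 cases for OE and in 2 for KO, with sums of 90.5 to 362 in OE, 31.4 to 72.3 in KO and 50.8 to 171.5 in Ctrl. The 10 Paneth cell genes had median log2 differences of 0.63 for KO and 1.37 for OE against Ctrl, with sums of 2071 to 6887 in OE, 1600.05 to 4559.6 in KO and 303 to 3570.3 in Ctrl, Ctrl 2 being the lowest. Of 8 fibroblast genes tested, 7 were positive for KO, with a median of 1.16, and 6 for OE, with a median of 0.56, while the sums overlapped at 18.3 to 118 in OE, 26.996 to 82.8 in KO and 24.7 to 82.7 in Ctrl. The 6 crypt stem cell genes were positive in 5 cases in both comparisons, with overlapping sums. Of 3 genes of red blood cells tested, 2 were positive for KO and 3 for OE. The smooth muscle and endothelial lists summed to no more than 3.38 in any library.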

How the data were processed

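Total RNA of ileal crypts was sequenced single-end per the labels' protocols. TPM per gene were deposited for 10 libraries and 28987 Ensembl IDs, as the file headers state for 9 of them. The submitters' processing notes name TopHat, Cufflinks and mm10 but give neither versions nor roles, and how reads from copies were shared is not given in the sources used here. Symbols, classes and coordinates came by ID from GENCODE M21 (GRCm38, the assembly mm10), and 1512 IDs had no symbol. TPM were divided by median-ratio factors over the 11146 genes above 0 in every library. Genes with at least 1 TPM in at least 2 libraries were tested (13056) with the trend option of limma 3.58.1 (R 4.3.3), fitting 3 group means and no covariate to log2(scaled TPM + 1). P-values were two-sided with Benjamini-Hochberg adjustment over all genes tested, threshold 0.05, and intervals are 95% intervals of that fit. The pseudocount of 1 understates changes of low genes. The procedure was tested on simulated data with independent noise for each gene. Shifts shared by many genes of a library, as seen among the members, were not simulated, so the test does not cover them. Replicate numbers did not pair the libraries. Coding identity was computed from M21 transcripts with Biopython 1.88. The members and gene lists were chosen with earlier results of these data known. Named members were, per comparison, the 3 with the smallest p in each direction (mean of at least 5 in the higher group), the 8 highest and 3 lowest levels, the 5 widest and 3 narrowest spreads, near paralogs, and members known for other roles; Rpl38, the copies and members said to be so were chosen after their values were seen. Some items that these rules take are not reported here. Alternatives are given at the end.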

Additional observations from a re-analysis of the deposited data

Results flagged for a closer look

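In the OE group, 41 values were tested for a library far from the other 4, and chance makes about 1 in 20 stand out. Rpl10 was at 121 scaled TPM in OE 4, against 173 to 183 in the other OE libraries. Rpl3 was at 52.2 in OE 5, against 72.0 to 78.5. Those were 2 of 40. The last, Rpl10l, was at 0.0247 in OE 2 and at 0 in the other OE libraries, and with 4 values at 0 any level above 0 would have stood out. The KO and Ctrl groups are too small for this check.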

How the results depend on the processing

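No setting called a member at an adjusted p under 0.05. All genes called numbered 0, but 5 for KO against Ctrl and 7 for OE against KO without the filter, 1 for KO against Ctrl and 1 for OE against Ctrl with only the 2 groups compared, and 3 for OE against Ctrl with the replicate block. Without Ctrl 3, OE 3 and OE 4 1 gene was called for OE against Ctrl and 1 when OE was set against KO, without Ctrl 2 and OE 1 they numbered 1 for OE against KO, and leaving out 1 library at a time gave 0 to 2, 0 to 1 and 0 to 2. On TPM as deposited the member medians were 1.05 for KO and 1.00 for OE against Ctrl, where the factor of Ctrl 2 is not applied and all genes shift by 0.38 and 0.36. With 1 library left out, the member medians ran between 0.28 and 0.84 (KO against Ctrl), 0.39 and 0.71 (OE against Ctrl) and -0.25 and 0.23 (OE against KO). Library weights gave 0.31 and 0.31 against Ctrl. With same-named copies added to each member, a setting chosen after seeing the data, the member medians were 0.60, 0.55 and -0.028. Of 81 members, 80, 75 and 36 were then positive, in the same order of comparisons. As percentage points of nuclear TPM, the member share was higher in KO than in Ctrl by 0.75, by 0.87 without Rps2 and by 0.44 as a share of all TPM, and in OE than in Ctrl by 0.62, 0.72 and 0.39; the last 2 settings were chosen after seeing the data. With 1 library left out it ran from 0.29 (without KO 1) to 1.20 (without KO 2) for KO, with 0.38 without Ctrl 2, and from 0.26 (without Ctrl 2) to 0.91 (without Ctrl 1) for OE. The replicate block gave member medians of 0.47, 0.63 and 0.13, and the correlations of same-numbered libraries' deviations, -0.18 to 0.063, do not pair them.

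Of 30 log2 differences printed for 22 members, leaving out 1 library moved 18 by over 1.5 times. Under some setting other than adding copies, 7 turned sign, and the cause was not tested. For KO against Ctrl, Rps6 was at 0.37 as deposited and 0.22 without KO 2, Rpl31 at 0.081 as deposited, 0.88 without KO 2, 0.18 without Ctrl 2 and 0.19 without Ctrl 2 and OE 1, and Rpl13 at 0.33 as deposited, 0.27 without Ctrl 2 and 0.27 without Ctrl 2 and OE 1. For OE against Ctrl, Rpl29 was at 0.37 as deposited, 0.068 without OE 2, 0.027 without OE 3, 0.18 without Ctrl 2 and 0.13 without Ctrl 2 and OE 1. Rps20 was at 0.46 as deposited, 0.020 with the nuclear sum, 0.037 with quantile normalization, 0.096 with the replicate block, 0.095 without OE 4, 0.12 without Ctrl 1 and 0.060 without Ctrl 3, OE 3 and OE 4. Rpl5 was at -0.0996 without Ctrl 2 and -0.00461 without Ctrl 2 and OE 1. Rps2 for OE against KO was at 0.087 without OE 1 and 0.080 without Ctrl 2 and OE 1. Leaving out single libraries gave ranges of -0.53 to 0.22 (Rps6), -0.54 to 0.27 (Rpl13), -0.36 to 0.18 (Rpl29), -0.15 to 0.12 (Rps20), -1.69 to 0.88 (Rpl31), -0.0996 to 0.53 (Rpl5) and, for OE against KO, -1.06 to 0.087 (Rps2), -0.80 to -0.072 (Rps27l), -0.83 to -0.27 (Rpl37a) and 0.20 to 0.75 (Rpl3). The direction was kept in all settings by 50 of 81 members between KO and Ctrl, 58 between OE and Ctrl and 27 between OE and KO. Unknown depth limits any statement on low members.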
